A study of Mus musculus with 24 samples.

Results

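The genes described here are 41 nuclear receptors measured in the perigonadal fat of mice with and without a transgene for lipoprotein lipase (LPL). They are the receptors of a fixed list of symbols that were found in the deposited annotation, and they make up 41 of the 24647 named genes on the arrays and 43 of the 27037 transcript clusters with a symbol. Nr3c2 has 3 clusters, and the cluster of highest mean was used. The fat came from 24 male C57BL/6 mice. The 12 Control mice carry the genotype label AdipoQ-LpL -/- and the 12 AdipoQ-LPL mice the label AdipoQ-LpL -/+, so the Controls lack the transgene that the others carry. All mice entered calorimetry chambers at 9.5 weeks of age, were changed there to a diet with 60% of calories from fat, and had eaten it for 10 days when the fat was taken. The transgene is driven by the adiponectin promoter, which is active in adipocytes, and the Controls are littermates. The authors, citing their earlier study, describe the rise of LPL mRNA as modest. The arrays measured whole tissue, in which fewer cells of a type and less RNA per cell cannot be told apart.

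Nuclear receptors are transcription factors that bind DNA as single molecules or pairs and, for most members, change their activity when a small fat-soluble ligand enters a pocket of the protein. The ligands include fatty acids, retinoids, thyroid hormone, steroids and bile acids. LPL splits triglyceride carried by lipoproteins in blood into fatty acids, and several receptors of this family respond to fatty acids or to lipids made from them. Many receptors recognise the same short DNA half-site, AGGTCA, with the spacing and orientation of repeats setting which pair binds. Bound receptors recruit coactivators or corepressors, and some do so at the genes of the circadian clock.

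The promoter windows of 4 receptors are shown as those of genes whose correlation with a clock gene, a known target or each other is described in the results that follow. By Pearson's r the correlations of Nr1d2 passed adjustment, and those of the other 3 receptors did not. By Spearman's rho that of Nr4a2 with Nr4a3 passed in the second set, and that of Nr1d2 with Per3 did not pass there. Sequences are from RefSeq, build GRCm38.p6, cover the 250 bases before the start of each gene, and are written 5′ to 3′ on the strand of the gene. In the REV-ERB receptor Nr1d2 (chr14:18239107-18239356, minus strand) the capitals mark the half-site AGGTCA, in the retinoic acid receptor Rarb (chr14:16575477-16575726, minus strand) they mark a retinoic acid response element, searched as a pair of GTTCA repeats in the same direction with 6 bases of any kind between them, and in the immediate early receptors Nr4a2 (chr2:57124004-57124253, minus strand) and Nr4a3 (chr4:48045055-48045304, plus strand) they mark TGACG, the half-site of the cyclic AMP response element, or CGTCA, the same letters on the other strand.
Nr1d2: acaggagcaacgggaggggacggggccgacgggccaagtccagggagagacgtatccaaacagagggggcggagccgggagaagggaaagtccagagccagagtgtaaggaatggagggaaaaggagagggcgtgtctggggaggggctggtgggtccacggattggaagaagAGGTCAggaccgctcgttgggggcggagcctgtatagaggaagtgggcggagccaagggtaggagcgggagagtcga
Rarb: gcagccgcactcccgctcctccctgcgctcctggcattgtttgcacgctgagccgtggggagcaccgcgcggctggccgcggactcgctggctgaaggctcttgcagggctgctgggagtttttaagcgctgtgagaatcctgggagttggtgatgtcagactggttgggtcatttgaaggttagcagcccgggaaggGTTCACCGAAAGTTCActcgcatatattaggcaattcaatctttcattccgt
Nr4a2: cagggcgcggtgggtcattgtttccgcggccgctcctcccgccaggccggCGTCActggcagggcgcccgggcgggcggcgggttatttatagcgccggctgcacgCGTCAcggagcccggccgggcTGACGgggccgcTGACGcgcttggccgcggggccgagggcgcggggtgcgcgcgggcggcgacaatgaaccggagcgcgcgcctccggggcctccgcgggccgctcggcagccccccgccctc
Nr4a3: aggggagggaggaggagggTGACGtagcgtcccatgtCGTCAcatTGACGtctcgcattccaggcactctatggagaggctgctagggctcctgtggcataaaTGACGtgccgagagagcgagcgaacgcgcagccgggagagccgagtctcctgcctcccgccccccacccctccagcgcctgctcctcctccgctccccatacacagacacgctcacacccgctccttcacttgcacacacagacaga
Windows of 37 of the 41 receptors were matched, 55 windows among the 32851 of the table, and each motif was searched on both strands. AGGTCA was found in 9 of the 55 receptor windows (16.4%) and in 14% of all windows, and its match in Nr1d2 began at position -77 from the start. TGACG was found in 12 receptor windows (21.8%) and in 17.8% of all, with 4 matches each in Nr4a2 and Nr4a3. The pair of GTTCA repeats was found in 22 windows of the table, or 0.067%, and the window of Rarb, with a match at -52, was the 1 window of a receptor among them. The E-box CACGTG, which clock factors bind, was found in 5 receptor windows (9.09%) and in 6.02% of all, and these letters were not in the Nr1d2 window. A match describes the letters alone.

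The animal numbers in the labels form 2 sets that do not hold the genotypes in equal numbers. In the first set are 5 Control mice with 8 AdipoQ-LPL mice, in the second 7 with 4. Array medians over the named clusters lay at 6.04 to 6.15 in the first set and 6.39 to 6.50 in the second, all on the log2 scale of RMA, the method by which the authors normalized the arrays. What else differed between the sets is not given in the sources used here. Within the first set, 6 of the 8 AdipoQ-LPL mice have animal numbers from 422 to 437, a run with no Control mouse, and the 5 Controls share the run from 289 to 295 with the other 2. Differences and exact tests within the first set therefore compare mice that are mostly of different runs, and in it run and genotype can be told apart only by those 2 mice, where the smallest exact p over 21 relabellings is 0.0476. Genotypes were therefore compared over all mice, with the animal set in the model, and within each set. Adipocyte markers fitted the labelled tissue, with 10 of 10 above a mean log2 value of 5 and a list mean of 11.39 to 12.04 in every mouse. The targeted gene, Lpl, did not separate the genotypes: its brighter cluster read 13.34 to 13.81 (median 13.65) in Control and 13.28 to 13.84 (median 13.48) in AdipoQ-LPL mice, a difference of -0.02 with the set in the model (limma adjusted p = 0.856). Its other cluster read 9.14 to 10.18 in Control and 9.44 to 10.16 in AdipoQ-LPL mice, a difference of 0.06 (limma adjusted p = 0.868). The labels could therefore not be checked against the transgene.

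Of the 41 receptors, 37 reached a mean log2 value of 5 in at least 1 genotype and were tested among 20208 clusters. The other 4 were Hnf4g, a relative of the liver factor Hnf4a, the progesterone receptor Pgr, the xenobiotic receptor Nr1i2 and the orphan repressor Nr0b1. None of the 37 passed an adjusted p of 0.05 between genotypes in limma, over all mice or with the animal set in the model, and 0.0099% of all clusters passed in each fit. None passed within either set, where 0.0099% of clusters passed in the first and 0.00495% in the second. Over all mice 2 of the 37 receptors (5.41%), Rara and Nr2f2, had an unadjusted p under 0.05, beside 5.63% of all clusters. With the set in the model 4 had (10.8%), namely Rara, Nr1h4, Esrrb and Nr1d2, beside 8.37% of all clusters. Within the first set 3 had, beside 8.1%, and within the second 1, beside 9.38%. Of the receptors named here, Esrrb passed the floor through its AdipoQ-LPL mean alone, 5.05 beside 4.97 in Control mice. The lowest adjusted p of a receptor was 0.691 over all mice, 0.527 with the set in the model, 0.589 in the first set and 0.402 in the second.

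The receptors as a whole took their sign from the way the sets were handled, as all tested clusters did. Over all mice 26 of the 37 differences, always given as AdipoQ-LPL minus Control, lay below 0, with a median of -0.06. Of all 20208 clusters 15946 lay below 0 in that fit, with a median of -0.08. With the animal set in the model 24 receptors lay above 0 and 13 below, with a median of 0.03 and a range of -0.21 to 0.32. Of all clusters 9353 lay below 0 in this fit, with a median of 0.01. Differences quoted for single receptors are those with the set in the model unless stated, since more AdipoQ-LPL mice are in the first set, where the arrays read lower.

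**Figure D1:**
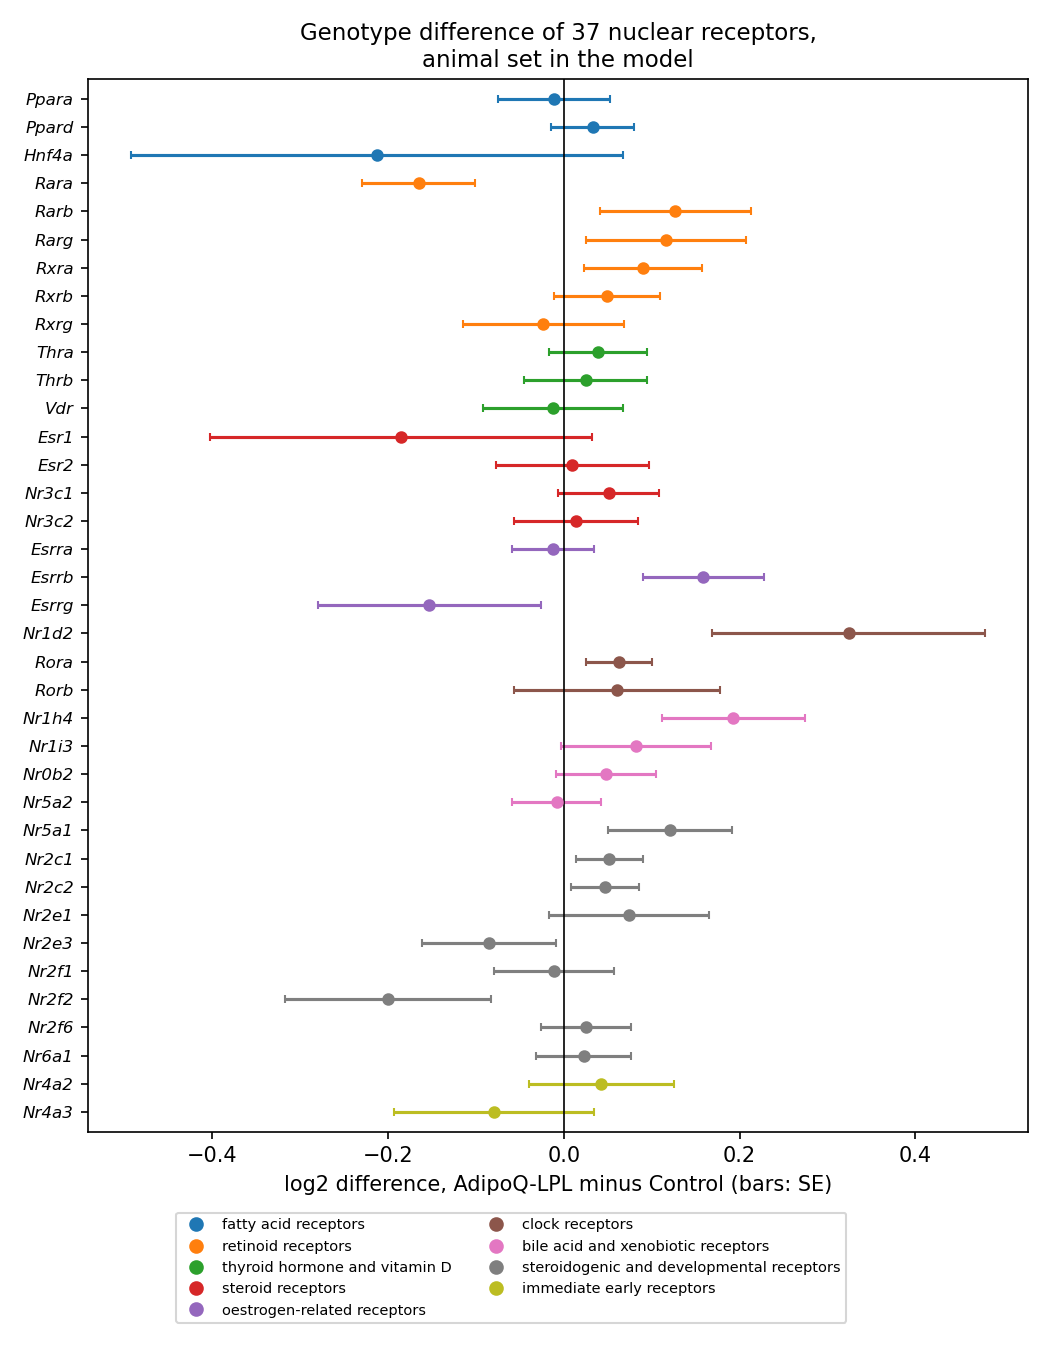
Difference between genotypes in log2 value (AdipoQ-LPL minus Control, animal set in the model) for the 37 tested receptors, grouped by role; points are estimates and bars the standard error. Rara lies furthest below 0 in units of its error, at -0.17, and Nr1d2 has the highest value, 0.32, with none past an adjusted p of 0.05.

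Among the receptors for fatty acids, Ppara, which drives fatty acid oxidation, and Ppard, which does so in many tissues including muscle, were nearly level between genotypes. Ppara read 6.43 to 6.89 in Control and 6.10 to 6.78 in AdipoQ-LPL mice, and Ppard 7.86 to 8.60 and 7.96 to 8.68. Both ranges overlapped over most of their length. The difference was -0.01 (SE 0.06) for Ppara and 0.03 (SE 0.05) for Ppard. Hnf4a, a factor of liver, gut and kidney epithelium that binds fatty acids, varied far more between mice and is described with Esr1 below. Of 18 measured targets of PPARA and PPARD, 16 were tested and none was called between genotypes. The target of lowest p was the lipid droplet coat gene Plin2, at -0.16.

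Of the 6 retinoid receptors, Rara had the lowest p of all receptors with the set in the model, and the others differed by -0.02 to 0.13. Rara encodes the retinoic acid receptor alpha. In the first set it read 7.25 to 7.73 (median 7.52) in Control and 7.07 to 7.37 (median 7.35) in AdipoQ-LPL mice. In the second set it read 7.58 to 8.07 (median 7.90) in Control and 7.53 to 7.93 (median 7.68) in AdipoQ-LPL mice. The ranges overlapped in both sets, and all but 1 of the 12 AdipoQ-LPL mice read lower than the mean of the Controls in the same set. The difference was -0.26 (SE 0.10) over all mice and -0.17 (SE 0.06) with the set in the model (limma p = 0.0163, adjusted p = 0.527). By set it was -0.19 (first, two-sided exact permutation p = 0.0373) and -0.14 (second, exact p = 0.242). Within the run of the Controls it was -0.27, with 2 AdipoQ-LPL mice (exact p = 0.238). With the set in the model it stayed between -0.20 and -0.13 when each mouse was left out in turn, and was -0.09 (limma p = 0.161) without the 5 mice picked for high Hnf4a and Esr1 that are described below, a choice made after seeing the data.

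Rarb, the retinoic acid receptor that retinoic acid itself induces through the element printed above, was dim. It read 4.98 to 5.39 in Control and 5.11 to 5.48 in AdipoQ-LPL mice of the first set, and 5.36 to 6.10 and 5.63 to 6.13 in the second. The genotypes overlapped in both sets. The difference was 0.13 (SE 0.09, limma p = 0.150). Rarg differed by 0.12 and the heterodimer partners Rxra, Rxrb and Rxrg by 0.09, 0.05 and -0.02. Rxra read 9.25 to 10.04 in Control and 9.48 to 10.12 in AdipoQ-LPL mice. Of the 9 measured targets of retinoic acid, 8 were tested and none was called. Dhrs3, which reduces retinal and is induced by retinoic acid, differed by 0.09. It followed Rarb with r = 0.65 across the 13 mice of the first set and r = 0.63 across the 11 of the second, and neither passed adjustment over the 44 correlations computed (permutation test, adjusted p = 0.0658 and 0.104).

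**Figure D2:**
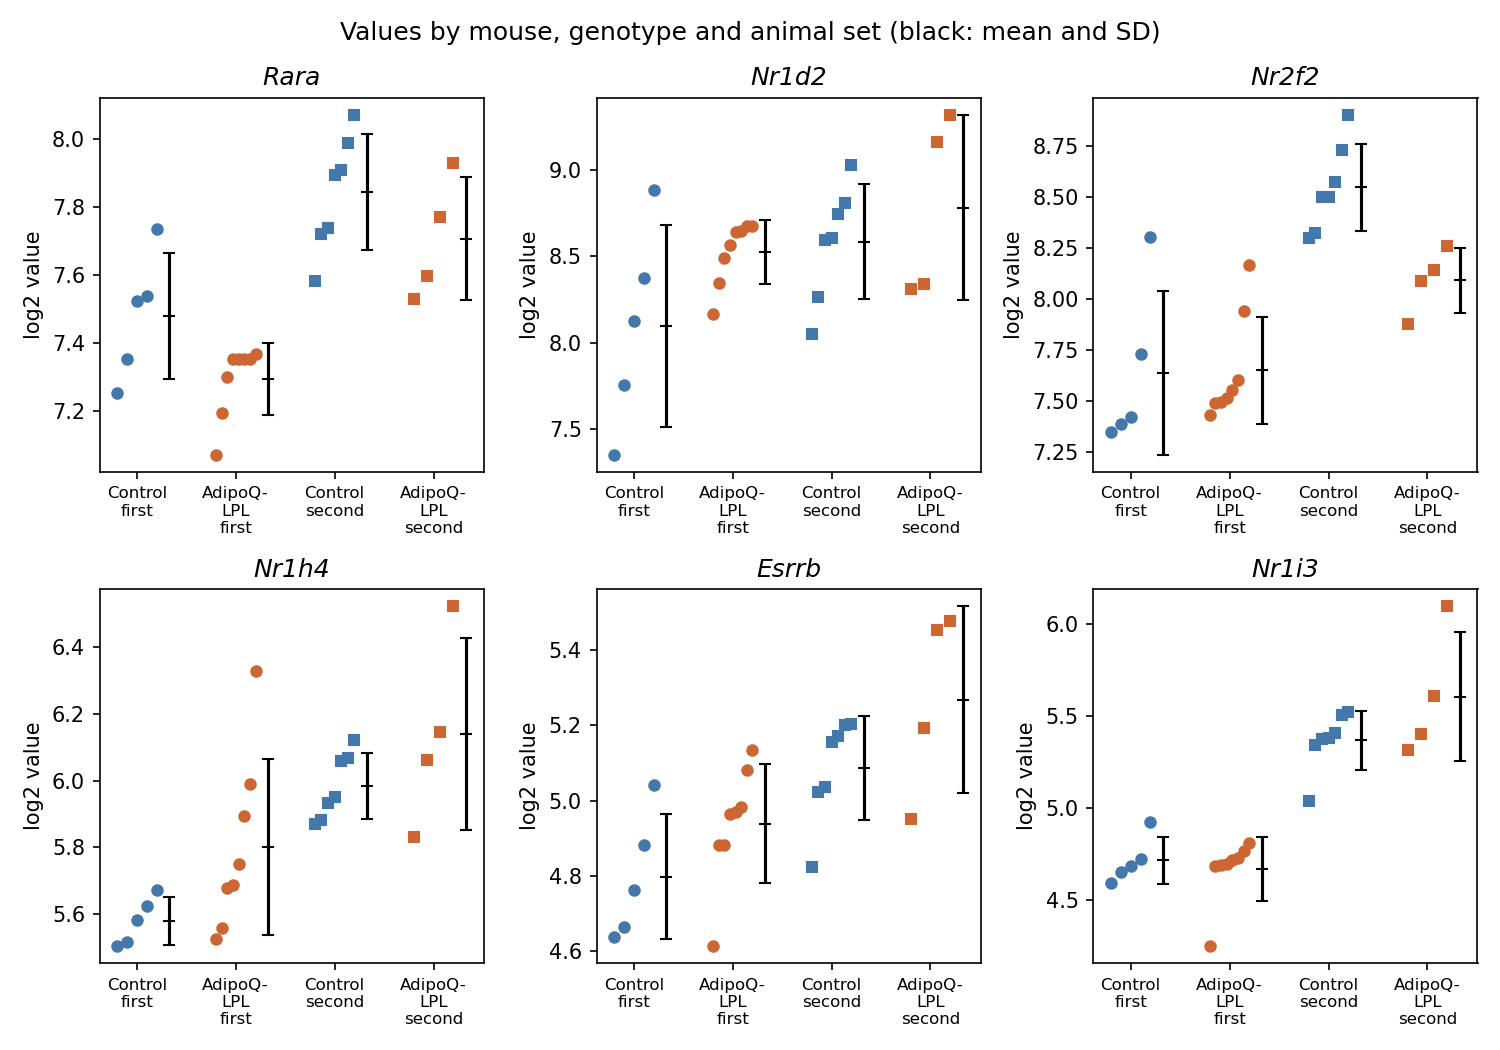
Log2 value of 6 receptors (Rara, Nr1d2, Nr2f2, Nr1h4, Esrrb and Nr1i3) in each of the 24 mice, by animal set and genotype; lines give the mean and bars the SD. The genotypes overlap in every panel except Nr2f2 in the second set, where all 4 AdipoQ-LPL mice lie below the 7 Controls.

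The receptors for thyroid hormone and vitamin D differed little by genotype, from -0.01 to 0.04. Thra read 8.10 to 8.58 in Control and 8.03 to 8.41 in AdipoQ-LPL mice, Thrb 7.85 to 8.61 and 8.00 to 8.61, and Vdr 5.72 to 7.00 and 5.85 to 6.80. None of the 9 targets of thyroid hormone was called. Me1 and Fasn, enzymes of fatty acid synthesis that thyroid hormone raises in liver, differed by -0.26 and -0.22. Thrb and Thrsp, a lipogenic gene induced by thyroid hormone, were correlated across the 13 mice of the first set (r = 0.71, permutation p = 0.00517, adjusted p = 0.0325, and rho = 0.69, permutation p = 0.0106, adjusted p = 0.0581), and r was 0.78 without the 2 mice farthest from the median of Thrb. The call was lost without centring (adjusted p = 0.0597) and with quantile normalization (adjusted p = 0.055). In the second set r was 0.37 (permutation p = 0.298) and rho 0.20 (permutation p = 0.559). Whether the correlations differ between sets was not tested. Thrb lies on chromosome 14 beside Rarb with no protein-coding gene between them, and Nr1d2 follows with 1 gene between.

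Among the steroid receptors, the glucocorticoid receptor Nr3c1 read 9.77 to 10.48 in Control and 9.88 to 10.45 in AdipoQ-LPL mice, and differed by 0.05 (SE 0.06). The mineralocorticoid receptor Nr3c2 differed by 0.01 (SE 0.07). Esr2, the second oestrogen receptor, differed by -0.16 in the first set and 0.22 in the second (limma interaction p = 0.0268), which was not past adjustment, with 0 of all tested clusters past it and 7.95% under an unadjusted 0.05. The 15 glucocorticoid targets held none called. Ddit4, a stress-induced inhibitor of mTORC1, differed by -0.30 (limma p = 0.0115) and Zbtb16, a transcription factor, by 0.32. The enzyme of lowest p among 14 tested that make or remove receptor ligands was Hsd11b1, which regenerates active glucocorticoid, at 0.26 (limma p = 0.000474, adjusted p = 0.392), with 0.30 in the first set and 0.21 in the second. Cyp27a1, a sterol hydroxylase, differed by 0.22 and Srd5a1, a steroid 5-alpha-reductase, by -0.21.

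Hnf4a, Esr1 and Esrrg varied between single mice more than between genotypes. Esr1 is the main oestrogen receptor, and Esrrg an orphan receptor that raises mitochondrial genes in oxidative tissues. The SD within set and genotype was 0.72 for Hnf4a, 0.56 for Esr1 and 0.32 for Esrrg, 3 of the 5 highest among the 37 receptors. The 5 mice of highest Hnf4a, Control 3, 7 and 11 and AdipoQ-LPL 8 and 10, were picked out by their levels of Hnf4a and Esr1, so how they stand apart in these genes is a description only. Hnf4a read 6.85, 7.56 and 8.22 as the lowest, median and highest of these mice and 5.65, 6.04 and 6.59 in the other 19. Esr1 read 8.99, 9.65 and 10.39 in the 5 and 8.28, 8.64 and 9.02 in the other 19, and Esrrg 6.27 to 7.35 and 5.83 to 6.78. For Hnf4a the 5 mice stood clear of the rest, for Esr1 the ranges overlapped by their ends, and for Esrrg they overlapped.

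Genes of cilia were then seen to be high in the same mice, and a list of 12 genes of ciliated epithelium was written after that, so its match with the receptors was found by search and is no independent evidence. The mean of the 11 measured genes was 6.33, 6.97 and 7.65 in the same 5 mice and 5.38, 5.61 and 5.91 in the other 19. All 11 were above the floor. Markers of the epididymis, which lies against this fat pad in males, were not high in them: the mean of 10 genes, of which 5 were above the floor, was 4.44 to 4.96 in the 5 mice and 4.23 to 6.27 in the others, with the highest values in Control 5 and 6. Markers of mesothelium, 8 of 8 above the floor, read 7.23 to 8.87 in the 5 mice and 7.69 to 9.02 in the others. The part of ciliated or other cells in the receptor levels was not tested. The genotype differences were -0.21 (SE 0.28) for Hnf4a, -0.19 (SE 0.22) for Esr1 and -0.15 (SE 0.13) for Esrrg. They were not refitted without the 5 mice, which were picked on these genes. Leaving out each mouse in turn gave -0.32 to -0.01 for Hnf4a, -0.26 to -0.00 for Esr1 and -0.19 to -0.03 for Esrrg, and in all 3 the value nearest 0 was without Control 3.

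**Figure D3:**
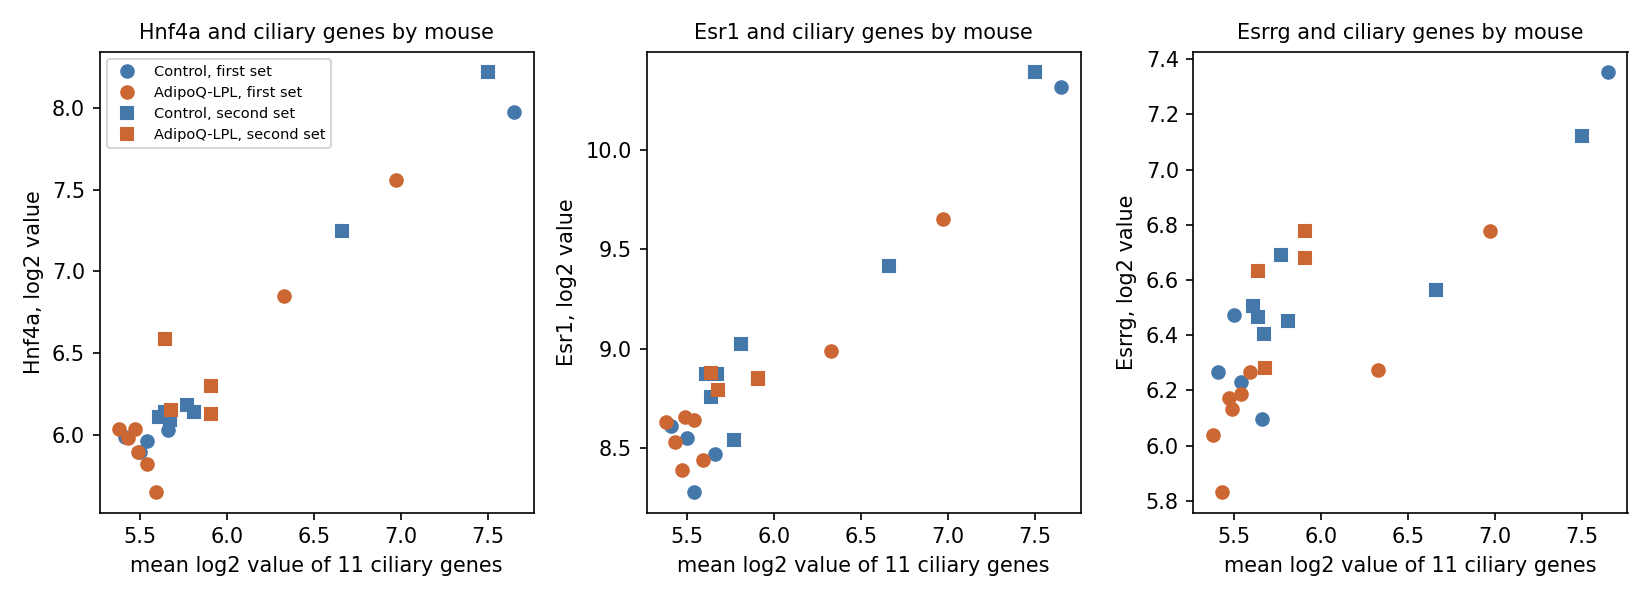
Log2 value of Hnf4a, Esr1 and Esrrg (vertical axes) against the mean log2 value of 11 genes of ciliated epithelium (horizontal axes) in the 24 mice, by genotype. The list was written after Hnf4a and Esr1 were seen to be high in 5 mice; these lie at 6.33 or above on the horizontal axis and hold the 5 highest values of Hnf4a, from 6.85 to 8.22.

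The other oestrogen-related receptors partner with PGC1 coactivators at genes of mitochondria. Esrra read 7.40 to 7.90 in Control and 7.37 to 8.00 in AdipoQ-LPL mice and differed by -0.01 (SE 0.05). Esrrb lay near the floor, with a mean of 4.97 in Control and 5.05 in AdipoQ-LPL mice. It was therefore tested only through the genotype in which it read higher. It read 4.64 to 5.04 (median 4.76) in Control and 4.61 to 5.13 (median 4.97) in AdipoQ-LPL mice of the first set, and 4.82 to 5.20 (median 5.16) and 4.95 to 5.48 (median 5.32) in the second. The genotypes overlapped in both sets. The difference was 0.16 (SE 0.07, limma p = 0.0301, adjusted p = 0.574), with 0.14 in the first set (exact p = 0.148) and 0.18 in the second (exact p = 0.139). None of 15 ERR targets was called, and Cycs, the gene of cytochrome c, had the lowest p at -0.14. Esrrg followed the coactivator Ppargc1a in the first set (r = 0.72, permutation p = 0.0087, adjusted p = 0.0478), but Spearman's rho was 0.38 (permutation p = 0.196). Without the 2 mice farthest from the median of Esrrg r was -0.10, so the relation rests on those mice. They were Control 3 and AdipoQ-LPL 8, which are among the 5 mice picked for high Hnf4a and Esr1. In the second set r was 0.26 (permutation p = 0.438).

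Of the clock receptors, Nr1d2, a REV-ERB repressor of the clock gene Arntl, had the highest genotype difference and the closest partners. In the first set it read 7.35 to 8.88 (median 8.13) in Control and 8.17 to 8.67 (median 8.60) in AdipoQ-LPL mice. In the second set it read 8.05 to 9.03 (median 8.61) in Control and 8.31 to 9.32 (median 8.75) in AdipoQ-LPL mice. In the first set the AdipoQ-LPL mice sat inside the wider range of the Controls, and in the second both spread widely. The difference was 0.23 over all mice (SE 0.16, limma p = 0.173) and 0.32 with the set in the model (SE 0.16, limma p = 0.0481, adjusted p = 0.595). It was 0.43 in the first set (exact p = 0.0699), 0.47 within the run of the Controls there (exact p = 0.333) and 0.20 in the second set (exact p = 0.448). Without Control 2, the lowest mouse, the difference with the set in the model had limma p = 0.141, and over all omissions it ran from 0.22 to 0.42.

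Across mice Nr1d2 moved with the output genes of the clock in both sets, after each array was centred. The correlation with Dbp, a clock-driven activator, was r = 0.95 over the 13 mice of the first set (rho = 0.96, permutation p = 1e-05, the smallest 100000 permutations can give, adjusted p = 0.00011) and r = 0.97 over the 11 of the second (rho = 0.98, the same p). Without the 2 mice farthest from the median of Nr1d2 it was 0.94 and 0.95. With the clock gene Per3 it was r = 0.85 (permutation p = 0.0001, adjusted p = 0.00088, rho = 0.88) in the first set and r = 0.78 (permutation p = 0.00398, adjusted p = 0.0292) in the second, where rho was 0.71 (permutation p = 0.0181, adjusted p = 0.0712). Without the 2 farthest mice it was 0.84 and 0.46, so in the second set it rests on those mice. With Arntl, the activator that REV-ERB proteins repress, it was r = -0.91 (rho = -0.95) and r = -0.96 (rho = -0.96), each with permutation p = 1e-05 and adjusted p = 0.00011, and -0.88 and -0.94 without the farthest mice.

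The spread of these genes between mice was wide. Centred values of Dbp ran from 8.26 to 10.21 in the first set, with Control 4 the highest, and from 8.38 to 10.43 in the second, with AdipoQ-LPL 1 the highest. Those of Arntl ran from 7.40 to 9.37 and from 7.08 to 8.92, and the same 2 mice were the lowest. The time of day at which each mouse was killed is not given in the sources used here, and its part in these values was not tested. By genotype, Dbp differed by 0.40 (limma p = 0.112), Per3 by 0.26 (limma p = 0.0519) and Arntl by -0.43 (limma p = 0.0643). Of the 15 genes of clock output none was called. Cry1, a clock repressor, had the lowest p at -0.22 (limma p = 0.000486, adjusted p = 0.392), followed by Cry2 at 0.13 and Nfil3, a repressor of Dbp targets, at -0.25.

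**Figure D4:**
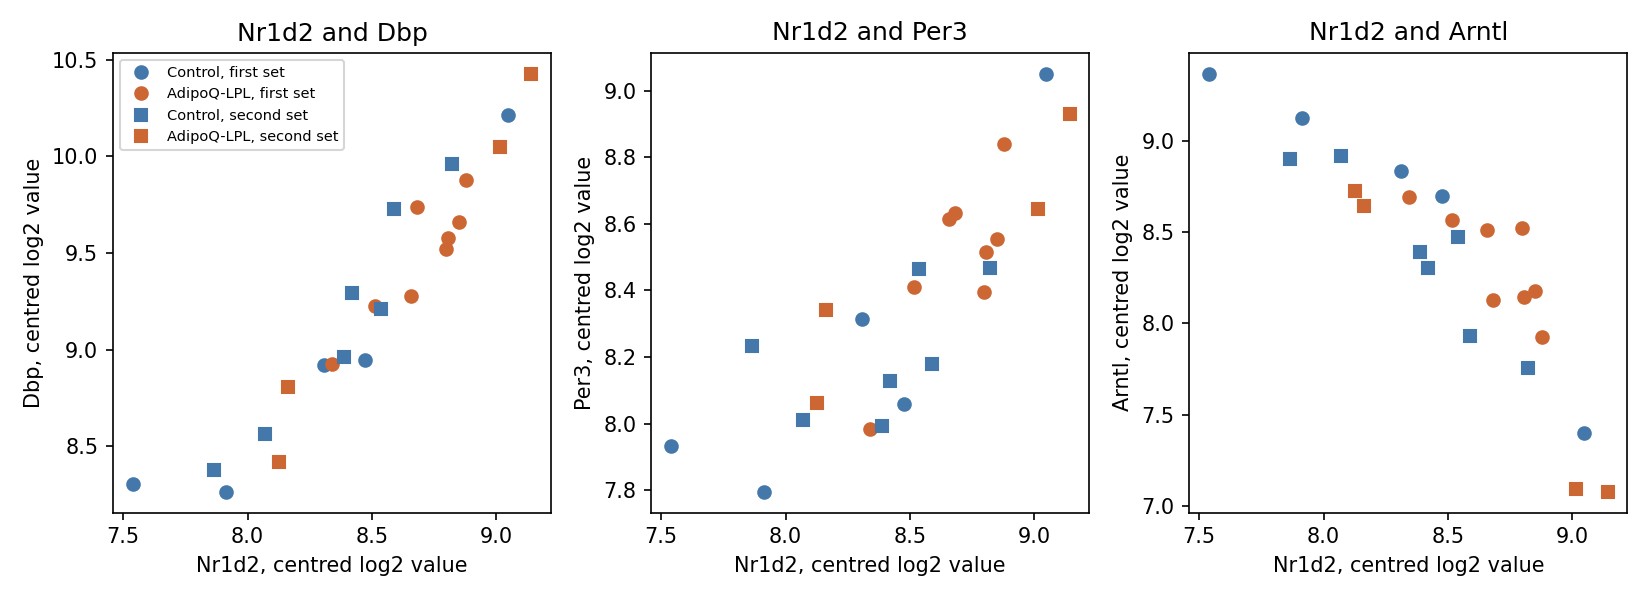
Log2 value of Dbp, Per3 and Arntl (vertical axes) against Nr1d2 (horizontal axes) in the 24 mice, each array centred on its median, by animal set and genotype. Dbp climbs with Nr1d2 (r = 0.95 and 0.97 in the first and the second set) and Arntl falls (r = -0.91 and -0.96).

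The ROR receptors, which activate at the sites where REV-ERB proteins repress, differed by 0.06 each. Rora read 7.86 to 8.04 in Control and 7.90 to 8.16 in AdipoQ-LPL mice of the first set, and 8.35 to 8.58 and 8.44 to 8.67 in the second. The genotypes overlapped (SE 0.04, limma p = 0.107), and the sets stood apart on these uncentred values. On centred arrays the sets overlapped, at 8.02 to 8.25 in the first and 8.15 to 8.49 in the second. Rora and Arntl had a negative correlation in the first set (r = -0.67, permutation p = 0.013, adjusted p = 0.0573). Its rho was -0.83 (permutation p = 0.00084, adjusted p = 0.00616). In the second set r was -0.46 (permutation p = 0.154) and rho -0.41 (permutation p = 0.215). Without the 2 mice farthest from the median of Rora, r was -0.81 and -0.00. Without centring it was -0.47 and -0.46. Rorb was high in 1 mouse, Control 6, at 6.77, where the rest of the second set read 5.51 to 5.94.

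The receptors for bile acids and xenobiotics act chiefly in liver and gut. Nr1h4, the bile acid receptor FXR, read 5.50 to 5.67 (median 5.58) in Control and 5.52 to 6.33 (median 5.72) in AdipoQ-LPL mice of the first set, and 5.87 to 6.12 (median 5.95) and 5.83 to 6.52 (median 6.10) in the second. The lower ends of the genotypes were alike, and AdipoQ-LPL 11 and 4 gave the upper ends. The difference was 0.19 (SE 0.08, limma p = 0.0256, adjusted p = 0.567), 0.22 in the first set (exact p = 0.0824), 0.10 within the run of the Controls there (exact p = 0.0952) and 0.16 in the second set (exact p = 0.224). AdipoQ-LPL 4 was also the mouse with the highest hepatocyte markers, with a mean of 8 genes, 7 of them above the floor, at 8.83, where the others read 6.31 to 7.05. The same mouse was highest in Nr1i3, the xenobiotic receptor CAR, at 6.10. Without it the difference of Nr1h4 was 0.14 (limma p = 0.0788) and 0.03 in the second set, and that of Nr1i3 was 0.00, against 0.08 with it. The part of liver RNA in these values was not tested.

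Nr0b2, the repressor SHP that FXR induces in liver, differed by 0.05 (SE 0.06) and Nr5a2, an activator of bile acid synthesis there, by -0.01 (SE 0.05). Of the 13 targets of FXR, PXR and CAR, 7 were tested and none was called, with Fgf15, the intestinal hormone that FXR induces, at 0.17 (limma p = 0.0242). Nr1i2, which encodes PXR, read 4.04 to 5.15 in all mice. Hnf4g, also below the floor over each genotype, read 3.57 to 4.39 in the first set, but 4.84 to 5.28 in Control and 5.34 to 5.76 in AdipoQ-LPL mice of the second. In a fit with no floor its difference was 0.21 with the set in the model (limma p = 0.0344, adjusted p = 0.602).

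Of the receptors of steroid-making and developing tissues, Nr2f2 (COUP-TFII), a factor of veins, lymphatics and adipocyte precursors, had values that separated the genotypes in the second set and not in the first. In the first set it read 7.34 to 8.30 (median 7.42) in Control and 7.43 to 8.17 (median 7.53) in AdipoQ-LPL mice. In the second set it read 8.30 to 8.90 (median 8.50) in Control and 7.88 to 8.26 (median 8.11) in AdipoQ-LPL mice. The genotypes overlapped in the first set and did not in the second, where Nr2f2 was the 1 receptor of 37 (2.70%) without overlap, beside 1.48% of all clusters. In the first set no receptor was without overlap, beside 0.351% of all clusters. The difference was -0.37 over all mice (SE 0.17), -0.20 with the set in the model (SE 0.12, limma p = 0.101, adjusted p = 0.650), 0.01 in the first set (exact p = 0.944) and -0.46 in the second (exact p = 0.00909, where the smallest possible is 0.00303, limma adjusted p = 0.402). The interaction of genotype and set had limma p = 0.0441, not past adjustment. The highest first-set values of Nr2f2 were in Control 3 and AdipoQ-LPL 8, which are among the 5 mice picked for high Hnf4a and Esr1. Nr2f2 read 7.94 to 8.57 in those 5 mice and 7.34 to 8.90 in the other 19. Omitting each first-set mouse in turn gave -0.06 to 0.18 within that set, with the highest value without Control 3. The part of these mice in the contrast between sets was not tested. Endothelial markers in the second set, 8 of 8 above the floor, read 9.88 to 10.55 in Control and 9.93 to 10.12 in AdipoQ-LPL mice, and 7 of 8 lay below 0, with a median of -0.12. B cell markers, 7 of 8 above the floor, read 5.68 to 6.97 and 5.74 to 6.05, and all 7 lay below 0, with a median of -0.55 and 3 at an unadjusted p under 0.05. Mesothelial markers read 7.23 to 9.02 and 7.69 to 8.84, and all 8 lay below 0, with a median of -0.20. Stromal fibroblast markers read 10.58 to 11.07 and 10.82 to 10.96, and 5 of 8 lay below 0, with a median of -0.02. In the first set all 7 B cell and all 8 mesothelial markers lay above 0, with medians of 0.15 and 0.36. Endothelial and stromal fibroblast markers there each had 5 of 8 above 0, with medians of 0.02 and 0.04. The part of these cells in the Nr2f2 difference was not tested. Its relative Nr2f1 (COUP-TFI) differed by -0.01, with 0.11 and -0.16 in the sets.

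Nr5a1 (SF-1), the master regulator of adrenal and gonadal steroid synthesis, read 5.28 to 6.30 in Control and 5.64 to 6.15 in AdipoQ-LPL mice, with a difference of 0.12 (SE 0.07, limma p = 0.103). All but 1 of the 12 AdipoQ-LPL mice read higher than the mean of the Controls in the same set. Of 7 measured markers of steroid-making cells 3 were above the floor, with a list mean of 4.21 to 5.02 in all mice. Nr5a1 lies next to Nr6a1, an orphan receptor of germ cells, on chromosome 2, and Nr6a1 differed by 0.02 (SE 0.05). Nr2e3, a factor of photoreceptors, read 5.25 to 5.83 in Control and 5.21 to 5.39 in AdipoQ-LPL mice of the first set, a difference of -0.19 (exact permutation p = 0.0357) that was -0.22 within the run of the Controls (exact p = 0.238), and differed by 0.04 in the second. The others, Nr2c1, Nr2c2, Nr2e1 and Nr2f6, differed by 0.05, 0.05, 0.07 and 0.03.

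The immediate early receptors Nr4a2 and Nr4a3 are induced within minutes by cyclic AMP and other signals and differed by 0.04 (SE 0.08) and -0.08 (SE 0.11). Nr4a3 spread from 5.66 to 6.98 in the Controls of the second set and from 5.48 to 5.76 in those of the first. Across mice the 2 genes had r = 0.66 in the first set and r = 0.69 in the second (permutation test, adjusted p = 0.0566 and 0.0661), neither past the threshold. Their rho was 0.66 in the first set (permutation test, adjusted p = 0.0712) and 0.85 in the second (adjusted p = 0.00955), where it passed. None of 12 other immediate early genes was called.

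Coregulators that these receptors share did not separate the genotypes. None of the 15 coactivators or 11 corepressors was called, and the coactivator of lowest p was Ncoa2, at 0.07. Macrophage markers, 8 of 8 above the floor, all lay above 0, with a median of 0.23, and none was called. Of the 8, 4 had an unadjusted limma p under 0.05, beside 8.37% of all clusters. Within the first set 4 had, beside 8.1%, and within the second 1, beside 9.38%. Their list mean read 9.12 to 9.92 in Control and 9.72 to 10.29 in AdipoQ-LPL mice of the first set, and 9.58 to 9.98 and 9.74 to 10.06 in the second. The part of macrophages in the receptor differences was not tested.

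The animal sets differed in more receptors than the genotypes did. With each array centred on its median and genotype in the model, 7 of the 37 receptors (18.9%) passed an adjusted p of 0.05 between the sets, 4 higher and 3 lower in the second set, beside 32.5% of all clusters (13.9% higher and 18.6% lower). At an unadjusted p under 0.05 there were 12 receptors (32.4%), beside 42.3% of all clusters. The share of receptors was thus below that of all clusters. Without centring 33 receptors (89.2%) passed, beside 82.9% of all clusters (83.9% at an unadjusted p under 0.05), with a median shift of all clusters of 0.33.

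The 4 that were higher in the second set were Nr1i3, Nr2f2, Nr2f1 and Rora. Nr1i3 lay near the floor and was tested through its Control mean alone, 5.10 beside 4.98 in AdipoQ-LPL mice. Uncentred, it read 4.25 to 4.92 in the first set, below the floor in every mouse. Centred values of Nr1i3 ran from 4.34 to 5.11 (median 4.88) in the first set and from 4.84 to 5.91 (median 5.20) in the second, and the difference was 0.44 (SE 0.09, limma adjusted p = 0.000553). Those of Nr2f2 ran from 7.53 to 8.40 and from 7.73 to 8.70, a difference of 0.34 (SE 0.11, adjusted p = 0.0204). In both genes the sets overlapped. Nr2f1 differed by 0.29 (SE 0.07, adjusted p = 0.00195) and Rora by 0.17 (SE 0.04, adjusted p = 0.000828), with Rora at 8.02 to 8.25 in the first set and 8.15 to 8.49 in the second. Among the receptors below the floor, in a fit with no floor, Hnf4g differed by 0.78 (limma adjusted p = 6.54e-07) and Pgr by 0.43 (adjusted p = 5.72e-05). Nr1i2 and Nr0b1 were not called in that fit (adjusted p = 0.266 and 0.11).

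The 3 that were lower in the second set on centred arrays were Thra, Nr0b2 and Nr5a2, and each was higher there without centring. Thra ran from 8.21 to 8.59 in the first set and from 7.87 to 8.37 in the second, with medians of 8.34 and 8.11, and the difference was -0.22 (SE 0.06, limma adjusted p = 0.00403). Nr0b2 and Nr5a2 both differed by -0.19 (SE 0.06, adjusted p = 0.0205 and 0.0123). All 3 overlapped between sets. Uncentred differences were 0.13, 0.16 and 0.16. Nr0b2 lost its call without AdipoQ-LPL 3 (adjusted p = 0.057).

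**Figure D5:**
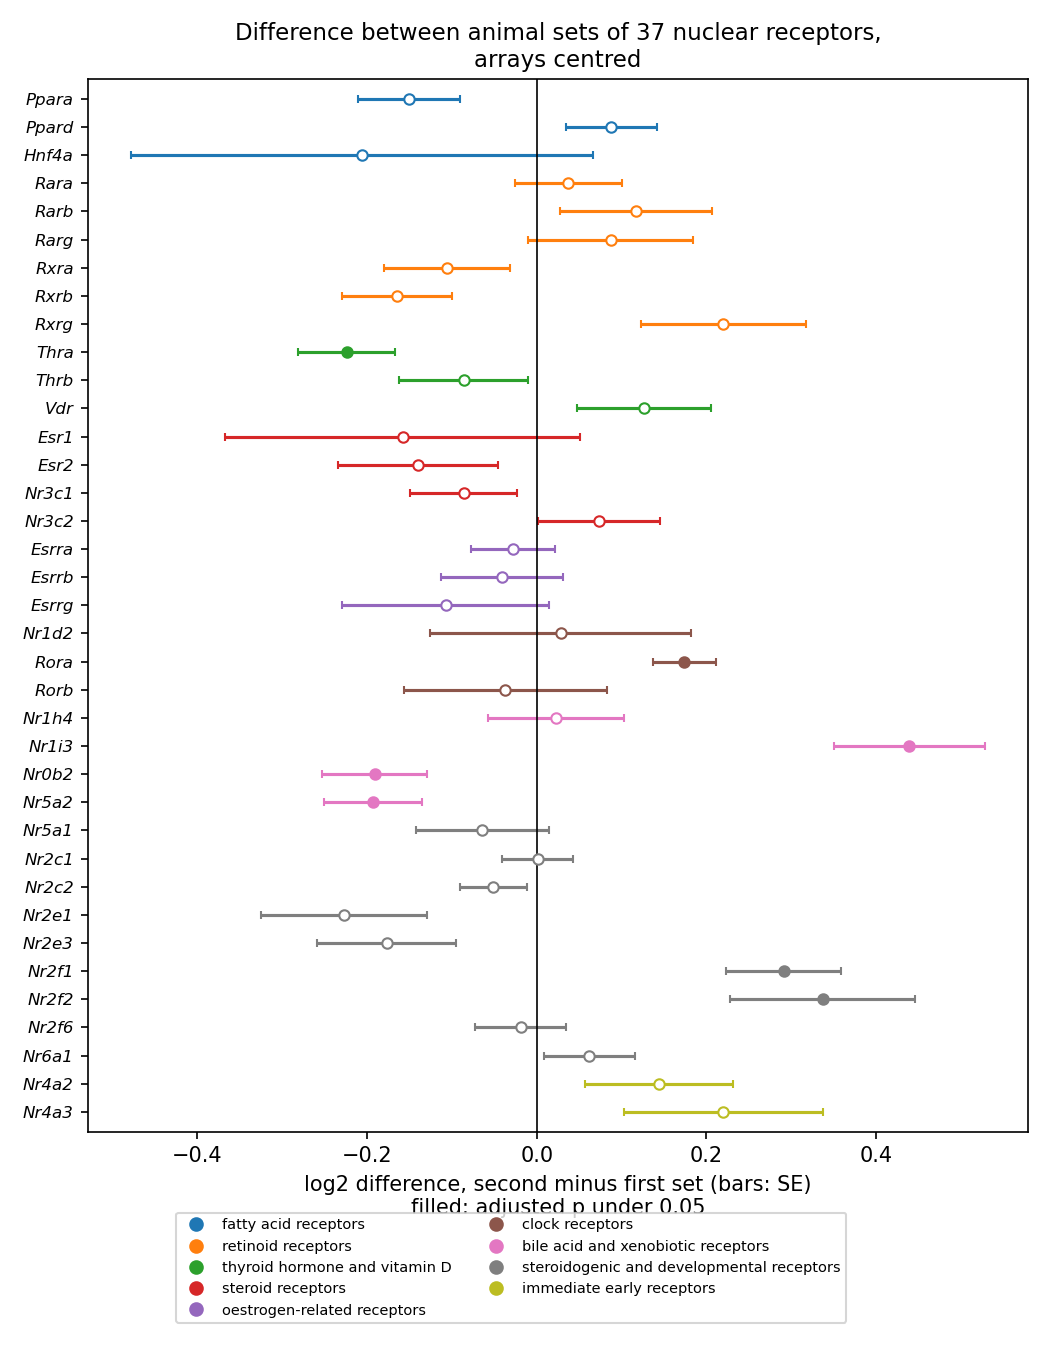
Difference between the animal sets in log2 value (second minus first, arrays centred on their median, genotype in the model) for the 37 tested receptors; bars are the standard error and filled points have an adjusted p under 0.05. Nr1i3 is highest at 0.44, and 4 of the 7 filled points lie above 0.

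Of the lists of receptor pathways, most held a share of genes called between the sets that was near or below the 32.5% of all clusters, and these counts are given as description. Called were 5 of 15 coactivators (33.3%), 4 of them higher in the second set with Ppargc1b at 0.42 (limma adjusted p = 3.71e-05), 4 of 15 glucocorticoid targets (26.7%), 3 of them lower with the metallothionein Mt2 at -0.44 and the kinase Sgk1 at -0.39, and 4 of 16 PPARA and PPARD targets (25.0%), 3 of them lower and the hormone Fgf21 higher at 0.48. Of 7 targets of FXR, PXR and CAR 2 were called (28.6%), both lower, with Ugt1a1 at -0.62. Shares were lower in the immediate early genes, with 2 of 12 called (16.7%), in the retinoic acid targets, with Dhrs3 alone of 8 (12.5%) at -0.24, and in the thyroid hormone targets, with Dio2, which makes active hormone, alone of 9 (11.1%) at 0.50. None of the 15 genes of clock output was called. Shares above that of all clusters were those of the corepressors, 6 of 11 (54.5%), 5 of them lower with the histone deacetylases Hdac2 at -0.23 and Hdac1 at -0.18, of the ligand enzymes, 7 of 14 (50%), 4 of them lower with the retinal dehydrogenase Aldh1a1 at -0.29, and of the ERR targets, 6 of 15 (40.0%), 5 of them lower and Cox5b higher at 0.51. Whether any list differed from all clusters was not tested.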

How the data were processed

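RNA of perigonadal fat from 24 mice was hybridised to Affymetrix mouse 2.0 arrays, with 1 array a mouse. RMA in Partek was used by the authors (versions: not given in the sources used here), who deposited log2 values for 41345 transcript clusters. Their workbook supplied gene symbols. Its group means differed from those of the matrix and were not used, nor were its columns of fold changes and p-values of their own comparisons. Per-exon values were not analysed here.

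The members and gene lists were chosen with earlier results of these data known. Named clusters whose mean log2 value reached 5 in Control or AdipoQ-LPL mice were compared by limma 3.58.1 in R 4.3.3 with statmod 1.5.0, two-sided, with Benjamini-Hochberg adjustment over all 20208, over all mice as the methods describe, with the animal set as a term, and within sets with exact permutation tests over 1287 and 330 relabellings. Each sample is a separate mouse. Correlations of 22 receptor and partner pairs in each set used 100000 permutations in Python 3.11.15 with numpy 2.4.6 and pandas 2.3.3. The partner of 1 further pair was not analysed here, and in 2 pairs a gene was below the floor. Figures used matplotlib 3.10.9. Full statistics are given for receptors past any adjusted test, the 8 of lowest p between genotypes with the set in the model, the 6 of lowest p between sets and the 5 of largest SD. The methods were tested on simulated data. Alternatives were other floors, scalings, weights, blocks, the methods' t-test and the omission of mice. The number of arrays limits the precision.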

Additional observations from a re-analysis of the deposited data

How the results depend on the processing

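No receptor was called between genotypes under any alternative except array weights over all mice, where 24 were, beside 14984 of all clusters. The cause was not tested. In that fit Nr1h4 was at -0.09, Esrrb at -0.12, Nr5a1 at -0.12 and Rarb at -0.25, opposite in sign to the unweighted fit. Rora over all mice turned to 0.04 with centred arrays, 0.03 with quantile normalization and 0.11 without the AdipoQ-LPL mice of animal numbers 422 to 437. Rarb ran from -0.05 to 0.07 when each mouse was left out. Between sets, 33 receptors were called without centring, where Thra was at 0.13, Nr0b2 at 0.16 and Nr5a2 at 0.16, and 7 to 10 under the other alternatives. Of the 44 Pearson correlations 8, of 5 pairs, passed adjustment. Without centring 8 did, where that of Thrb and Thrsp was lost (permutation test, adjusted p = 0.0597) and that of Rxra and Ppara in the first set came in (r = -0.73, adjusted p = 0.0392). On centred arrays the latter had r = -0.67 (adjusted p = 0.0661) and rho = -0.60 (adjusted p = 0.0987). There r was -0.42 without the 2 mice farthest from the median of Rxra, and -0.06 in the second set. With quantile normalization 7 correlations passed, of 4 pairs. The exact tests within the run of animal numbers of the first-set Controls were added after seeing the data. Same-numbered mice of the 2 genotypes correlated from -0.40 to 0.38 as deviations from the mean of their genotype. Only 1 same-numbered pair was of 1 animal set, and the set difference was not removed, so these values cannot show whether the numbers pair the mice. The fit with the replicate number as a block called 0 receptors. The methods' t-test gave 1 receptor under an unadjusted 0.05 and 0 after adjustment. The omission of 5 mice, picked after seeing the data for high Hnf4a and Esr1, was applied to the receptors other than Hnf4a, Esr1 and Esrrg. Esrrb, Rarb and Nr1i3 lay near the floor, and the number of arrays limits how small a change can be called.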
